A study of Homo sapiens with 3 samples.

Results

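Histone cluster genes are the genes that the array's own gene names place in the HIST1, HIST2, HIST3 or HIST4 cluster, and there were 69 of them among 43316 genes on the array. They were measured by 85 probes, and the probe with the highest mean signal stood for each gene. The members comprised 6 genes of the linker histone H1 and 17, 19, 13 and 14 genes of the core histones H2A, H2B, H3 and H4. By cluster, 56 members belonged to HIST1, 9 to HIST2, 3 to HIST3 and 1 to HIST4. Names are those of the array design, and all 69 were matched to a current RefSeq symbol, 68 of them by accession and HIST2H2BF (H2BC18) by its older name.

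H1975 is an osimertinib-sensitive non-small cell lung cancer cell line with mutated EGFR. OR1 and OR2 are osimertinib-resistant lines derived from H1975 in separate flasks by raising the dose stepwise to 2 μmol/L within 4 months. RNA of each line, grown in the same serum-containing medium, was measured on 1 single-colour Agilent array. The lines are single selections, not replicates of each other, so each comparison was of 1 array with 1 array. With 1 array a line there was no test of a ratio, and the precision is limited by the number of arrays.

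Core histones form the protein spool of the nucleosome, around which DNA is wound, and linker histone H1 binds where DNA enters and leaves it. Most genes of the HIST clusters are transcribed in S phase, when new DNA has to be packaged. Their mRNAs usually end in a conserved stem-loop instead of a poly(A) tail, although some cluster genes also make polyadenylated transcripts. The labeling kit named in the labels primes cDNA from poly(A), and how completely stem-loop mRNAs were primed was not measured. Since the signal is a sum over all cells of a culture, fewer cells in S phase and less histone mRNA per cell cannot be told apart.

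A level is given here as the log2 intensity of a probe minus the array's 75th percentile, an intensity between 138 (OR1) and 162 (OR2). A ratio to H1975 is the difference of the levels of 1 probe on 2 arrays. Levels of different probes were not compared with each other, since probes differ in how brightly they bind. The scanner software estimates an error for each spot, and carried over to the log2 ratio it gave a technical SD with a median of 0.20 over the members in either line. It reflects how well 1 RNA sample was measured, and spread between cultures is not in it. Between 45.6% and 45.9% of all probes on an array were well above background by that software's own mark. Of 10 epithelial genes chosen as markers of lung adenocarcinoma cells, 9 were well above background in H1975.

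Signal well above background was present on all 3 arrays for 63 of the 69 members, and HIST3H2A was so in OR1 only. The remaining 5 were not well above background on any array. They were HIST1H1T and HIST1H2BA, which code for testis-specific histones, the pseudogene HIST1H2APS1, HIST1H4G and HIST2H2BA. HIST3H2A had a level of -3.14 in OR1, which put its ratio at no less than 1.43 against H1975. A gene counted as higher at a ratio of at least 2 and as lower at a ratio of at most 0.5, on condition of a signal well above background on the higher side.

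The histone cluster genes had lower signal in OR2 than in H1975 nearly throughout. Under the percentile scaling, OR1 lay close to H1975 for most members outside the HIST2 cluster, with HIST1H3C and HIST3H3 among the exceptions. The median log2 ratio of the 63 members was -0.65 in OR2, a ratio of 0.636, and -0.14 in OR1, a ratio of 0.907. Over all 18591 genes well above background on the 3 arrays the medians were -0.05 and 0.03. In OR2, 61 of the 63 members lay below their H1975 level, or 96.8% against 53.9% of all genes, and in OR1 45 did, or 71.4% against 47.7%. The decrease exceeded 2 technical SDs for 57 of the 63 members in OR2, against 4705 of the 18591 genes. In OR1 it did so for 12 members, against 4166 genes. An increase of that size was seen for no member in OR2, against 3970 genes. In OR1 it was seen for 2 members, HIST1H2AL and HIST1H4J, against 4499 genes. These values hold for the percentile scaling. With spike-in scaling the members' median was -0.74 in OR1 and -0.58 in OR2, against -0.56 and 0.02 over all genes.

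**Figure D1:**
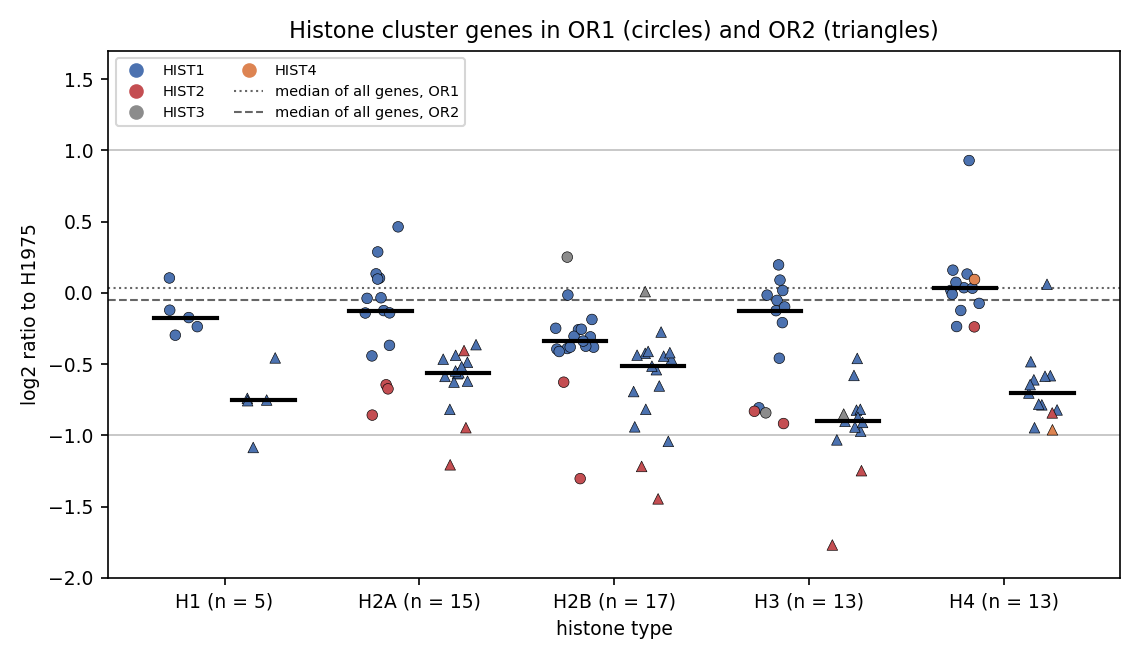
Log2 ratio to H1975 of the 63 histone cluster genes well above background on all 3 arrays, by histone type, with circles for OR1, triangles for OR2, colours for the clusters and black bars for the medians. Grey solid lines mark ratios of 2 and 0.5, and the broken lines mark the medians of all genes. The OR2 medians of the 5 types lie between -0.90 and -0.51, and the HIST2 members lie at the lower end of most columns.

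Few of these shifts passed a ratio of 0.5. In OR1, 1 of the 64 members with signal on any array passed it, or 1.56% against 9.34% of all 22418 such genes, and none passed a ratio of 2, against 8.95%. In OR2, 8 members fell past 0.5, or 12.5% against 8.41% of all genes, and none passed 2, against 7.47%. Only HIST2H2BF fell past 0.5 in both lines, against 6.32% of all genes, and no member passed 2 in both, against 5.09%. Most members shifted by less than the ratio used for a call, the share called lower in OR2 was near that of all genes, and in OR1 it was below it.

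Linker histone genes were moderately lower in OR2. The 5 measured H1 genes had a median log2 ratio of -0.75 in OR2, between -1.08 and -0.46, and of -0.17 in OR1, between -0.30 and 0.10. HIST1H1B, which codes for H1.5, had levels of 2.63 in H1975, 2.33 for OR1 and 1.55 for OR2, and it fell past 0.5 in OR2 with a ratio of 0.471. HIST1H1C, which codes for H1.2, had levels of 6.57 in H1975, 6.33 for OR1 and 6.11 for OR2, a ratio of 0.729 in OR2. Under the percentile scaling OR2 was the lowest of the 3 lines for all 5 of these genes. With spike-in scaling the H1 median log2 ratio of OR2 to OR1 was 0.036.

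Genes of H2A, which pairs with H2B in the nucleosome, had median log2 ratios of -0.12 (OR1) and -0.56 (OR2) over 15 measured members. All 15 were below H1975 in OR2, and 10 were below it in OR1. HIST1H2AJ had levels of 6.45 in H1975, 6.32 for OR1 and 5.93 for OR2. HIST2H2AC had the largest decrease of its type in both lines, from a level of 4.73 in H1975 down to 3.87 for OR1 and 3.52 for OR2. Its ratio of 0.433 in OR2 passed 0.5, and its ratio in OR1 was 0.552. The OR1 and OR2 values of HIST2H2AC were thus nearer to each other than to H1975.

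H2B genes had median log2 ratios of -0.34 (OR1) and -0.51 (OR2) over 17 measured members. With spike-in scaling these medians were -0.93 and -0.44, so how near the lines lay to each other depends on the scaling. In OR1, 16 of the 17 were below H1975, including all 14 measured H2B genes of HIST1, whose values lay between -0.41 and -0.01. HIST1H2BL had levels of 6.09 in H1975, 5.71 for OR1 and 5.68 for OR2. HIST3H2BB, with levels of -2.70 in H1975, -2.45 for OR1 and -2.69 for OR2, was the exception in both lines, and its log2 ratio of 0.25 in OR1 was within its technical SD of 0.32. HIST2H2BF fell from a level of 3.11 in H1975 down to 1.80 for OR1 and 1.66 for OR2, with log2 ratios of -1.30 and -1.45 and a technical SD of 0.20 for each. HIST1H2BF also fell past 0.5 in OR2, from 1.97 in H1975 to 0.93, with a level of 1.66 in OR1.

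H3, which carries much of the chromatin's regulatory tail modification, had the lowest median of the 5 types in OR2, at a log2 ratio of -0.90 over 13 measured members. The median in OR1 was -0.12. All 13 H3 genes were more than 2 technical SDs lower in OR2 than in H1975, and 5 were so in OR1. HIST2H3A and HIST2H3D, which code for H3.2, had the lowest OR2 values, with ratios of 0.293 and 0.421. The log2 ratios of HIST2H3A were -0.83 in OR1 and -1.77 in OR2, and its levels were 6.004 in H1975, 5.17 for OR1 and 4.23 for OR2. HIST2H3D had levels of 6.80 in H1975, 5.89 for OR1 and 5.56 for OR2. HIST1H3C, which codes for H3.1, had levels of 6.43 in H1975, 5.62 for OR1 and 5.40 for OR2, and it passed 0.5 in OR2 at a ratio of 0.489. HIST3H3, named for a testis-specific H3, had levels of 7.58 in H1975 and 6.73 in both OR1 and OR2, or ratios of 0.558 and 0.555.

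The H3 probes show how far a signal can be assigned to 1 gene, since coding sequences of H3 genes are nearly alike. The 4 probes below come from overlapping stretches of the H3 coding sequence. They are shown because, under the percentile scaling, HIST1H3C, HIST3H3 and HIST2H3D were lower in OR1 than in H1975 and HIST1H3B was not. The sequences are written 5′ to 3′ as deposited. In the lower 3 the capitals mark letters that are the same as in the HIST1H3C probe at the best ungapped alignment.
HIST1H3C (hg19, chr6:26045965-26046024, + strand): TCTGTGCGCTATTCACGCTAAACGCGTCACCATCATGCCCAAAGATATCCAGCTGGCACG
HIST3H3 (hg19, chr1:228612646-228612705, - strand): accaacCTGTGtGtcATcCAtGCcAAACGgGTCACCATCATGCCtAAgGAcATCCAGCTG
HIST2H3D (hg19, chr1:120904981-120905040, + strand): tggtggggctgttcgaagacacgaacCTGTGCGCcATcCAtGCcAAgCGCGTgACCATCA
HIST1H3B (hg19, chr6:26031922-26031981, - strand): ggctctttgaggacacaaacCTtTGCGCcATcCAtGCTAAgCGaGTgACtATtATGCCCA
The HIST3H3 probe shared 44 of 60 letters with that of HIST1H3C, and the log2 ratios of the pair in OR1 were -0.84 and -0.81. The HIST2H3D probe shared 28 and had a log2 ratio of -0.92 in OR1. Other pairs of H3 probes shared more letters, and some of them differed more while others differed little. HIST1H3F and HIST1H3H, the H3 pair most alike, shared 51 of 60. Their log2 ratios were -0.05 and -0.02 in OR1, and -0.94 and -0.90 in OR2. HIST1H3B and HIST2H3D shared 45 of 60, with log2 ratios of 0.20 and -0.92 in OR1, and HIST1H3A and HIST1H3D shared 46, with -0.46 and 0.02. The HIST1H3B probe shared 31 letters with that of HIST1H3C and had a log2 ratio of 0.20 for OR1 and -0.82 for OR2. How much of each signal came from other H3 mRNAs was not tested.

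H4 genes, apart from HIST1H4G, code for the same protein, and their OR1 median was the nearest to H1975 of the 5 types under the percentile scaling. The median log2 ratio of 13 measured members was 0.03 in OR1 and -0.70 in OR2. HIST1H4C had levels of 8.63 in H1975, 8.66 for OR1 and 8.04 for OR2. HIST2H4B had levels of 4.25 in H1975, 4.01 for OR1 and 3.40 for OR2. HIST1H4J was the only H4 gene above H1975 in both lines, with levels of 3.72 in H1975, 4.65 for OR1 and 3.78 for OR2. Its log2 ratio was 0.93 in OR1, close to a ratio of 2, and 0.06 in OR2.

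**Figure D2:**
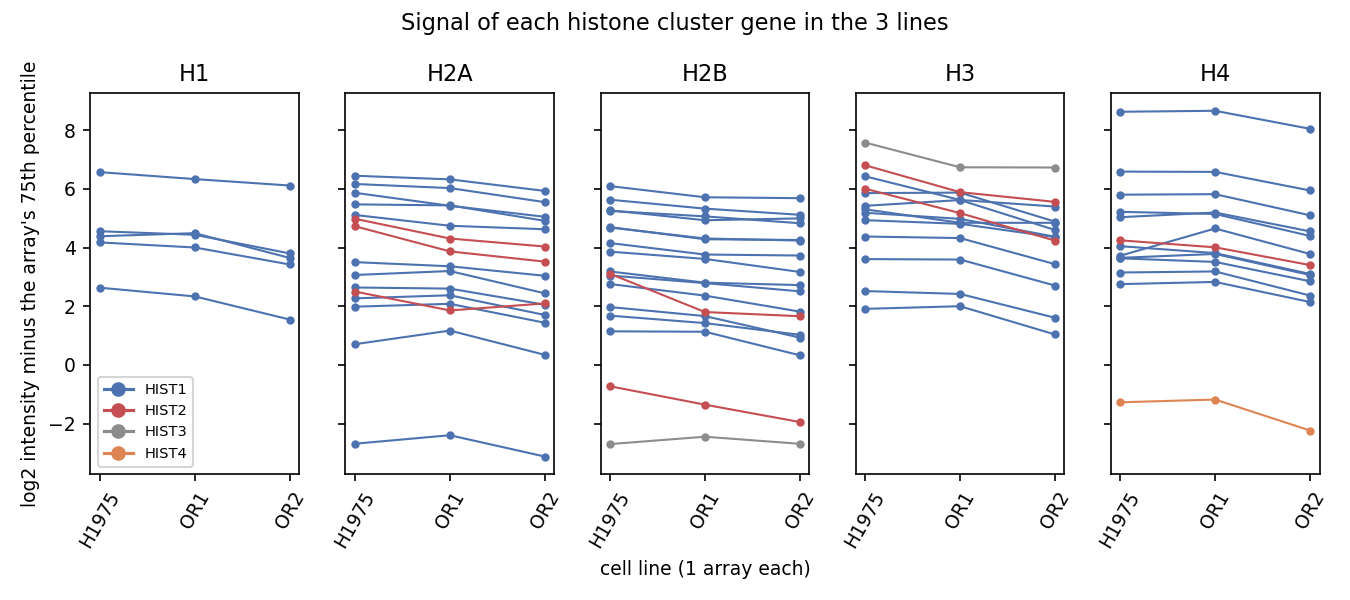
Level of the 63 histone cluster genes well above background on all 3 arrays (log2 intensity minus the array's 75th percentile) in H1975, OR1 and OR2, 1 panel per histone type and 1 line per gene, coloured by cluster. Most H1, H2A, H3 and H4 lines are flat from H1975 to OR1 and drop to OR2, while most H2B lines step down already in OR1 under this scaling.

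The increase in HIST1H4J was shared by a probe of another gene. The HIST1H4J probe and the fainter probe of HIST1H4K share an unbroken run of 37 letters across the stop codon, in capitals here, and both are shown because they are the H4 probes that stood above H1975 the most in OR1.
HIST1H4J (hg19, chr6:27792176-27792235, + strand): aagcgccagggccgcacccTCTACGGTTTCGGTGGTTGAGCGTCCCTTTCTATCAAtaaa
HIST1H4K, first 45 bases of the probe (probe at hg19, chr6:27798954-27799013, - strand): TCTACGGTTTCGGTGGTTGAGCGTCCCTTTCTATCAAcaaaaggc
The log2 ratios were 0.93 for HIST1H4J and 0.98 for this HIST1H4K probe in OR1, and 0.06 and 0.16 in OR2. The brighter HIST1H4K probe is annotated to HIST1H4J and HIST1H4I as well, and had log2 ratios of 0.16 in OR1 and -0.48 in OR2. The files name further histone genes for 5 of the 69 chosen probes in all, those of HIST1H4K, HIST2H2AA4, HIST2H3A, HIST2H3D and HIST2H4B. Without these 5, the median of the remaining 58 measured members was -0.13 in OR1 and -0.65 in OR2.

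The median of the HIST2 members was below that of HIST1 in both lines, although single values overlapped. This grouping was made after the values were seen. The 8 measured HIST2 genes were all below H1975 in both lines, with median log2 ratios of -0.75 (OR1) and -1.21 (OR2), against -0.12 and -0.61 for the 52 of HIST1. The HIST2 values lay between -1.30 and -0.24 in OR1 and between -1.77 and -0.40 in OR2. Of the 8 members that fell past 0.5 in OR2, 5 were HIST2 genes, HIST2H2AC, HIST2H2BE, HIST2H2BF, HIST2H3A and HIST2H3D. HIST2H2BE had levels of -0.73 in H1975, -1.35 for OR1 and -1.95 for OR2. The fainter probe of HIST2H2BE had a ratio of 0.765 in OR2 and did not pass 0.5 there. In OR1, where its signal was not well above background, its ratio was at most 0.454, past 0.5, against 0.648 for the chosen probe.

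Genes next to the clusters were measured for comparison. The 20 nearest genes outside the histone families with signal on all 3 arrays had median log2 ratios of -0.41 in OR1 and -0.28 in OR2 around HIST2. Around the first part of HIST1 they had medians of 0.54 and 0.61, and around the second part 0.34 and 0.20. The part that the surrounding region has in the histone values was not tested. The probe positions in the files place HIST2H2BF, HIST2H2BA and HIST2H3D outside the stretch of the other HIST2 probes, so these 3 were left out of the HIST2 stretch used to find neighbours.

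**Figure D3:**
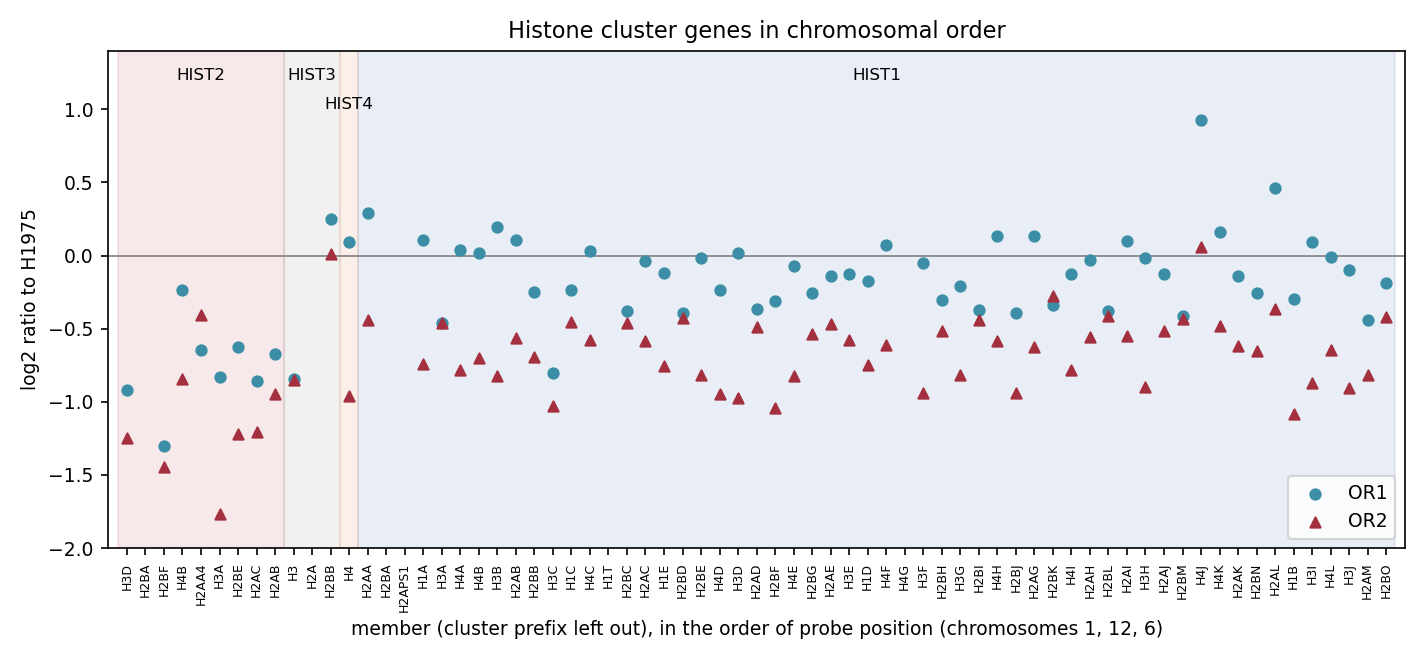
Log2 ratio to H1975 of histone cluster genes in OR1 (circles) and OR2 (triangles), in the order of probe position on chromosomes 1, 12 and 6, with shading for the clusters. Members without points were not well above background on all 3 arrays. In HIST1 the OR1 points lie mostly just under 0 and the OR2 points near -0.61 along the whole cluster, whereas all HIST2 points lie below 0 in both lines.

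Along HIST1 the values were alike in both parts of the cluster. The median log2 ratio was -0.12 for OR1 and -0.61 for OR2 for its first part on chromosome 6 (hg19, probe starts from 26017351 in HIST1H1A to 26285497 in HIST1H4H, with HIST1H2AA further upstream). It was -0.12 and -0.62 for the second part (probe starts from 27100318 in HIST1H2BJ to 27861588 in HIST1H2BO). Within HIST1, H3 genes had the lowest median in OR2, -0.89, followed by H1 with -0.75, H4 with -0.64, H2A with -0.55 and H2B with -0.49. The values of single members overlapped between these types, from -1.04 to -0.27 for H2B and from -1.03 to -0.46 for H3.

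H2A and H2B genes often lie head to head and share the DNA between their starts. RefSeq promoter windows overlapped on opposite strands for 12 pairs of members, 11 of them an H2A with an H2B gene. The remaining pair was HIST1H3D with HIST1H2BF, which is also paired with HIST1H2AD. That pair rests on the first listed of the HIST1H3D windows. For the 10 pairs with a ratio on both sides, the partners' log2 ratios had a median difference of 0.27 (OR1) and 0.10 (OR2). Both partners were below H1975 in all 10 in OR2 and in 7 in OR1. Of all 63 members, 61 were below H1975 in OR2 and 45 in OR1. Differences between members that are not partners are not given, and the part of the shared DNA was not tested. The largest difference in OR2 was 0.56, between HIST1H2AD at -0.49 and HIST1H2BF at -1.04. HIST2H2BE and HIST2H2AC, at -1.22 and -1.21 in OR2, were among the pairs with the closest values.

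Promoter sequences are shown for 3 HIST2 genes, since all measured HIST2 members were below H1975 in both lines. They are the 200 bases before the RefSeq start (GRCh38.p14), 5′ to 3′ in the direction of the gene. Capitals mark ATTTGCAT, the octamer element of H2B promoters, TATAAA and CCAAT, each searched on both strands, and no match shown overlaps another.
HIST2H2AC (chr1:149886718-149886917, + strand): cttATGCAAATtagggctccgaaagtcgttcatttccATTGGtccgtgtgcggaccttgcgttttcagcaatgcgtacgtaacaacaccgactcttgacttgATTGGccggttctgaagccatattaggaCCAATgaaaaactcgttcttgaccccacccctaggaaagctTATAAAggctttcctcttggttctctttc
HIST2H2BF (chr1:149812371-149812570, - strand): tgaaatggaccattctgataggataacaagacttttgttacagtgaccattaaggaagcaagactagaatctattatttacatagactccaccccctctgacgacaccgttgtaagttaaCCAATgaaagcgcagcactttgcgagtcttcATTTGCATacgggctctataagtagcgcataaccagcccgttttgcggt
HIST2H3A (chr1:149852408-149852607, + strand): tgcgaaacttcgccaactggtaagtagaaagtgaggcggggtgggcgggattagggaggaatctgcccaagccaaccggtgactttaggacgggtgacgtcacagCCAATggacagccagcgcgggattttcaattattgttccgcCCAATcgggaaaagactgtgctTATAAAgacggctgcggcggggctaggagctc
In the 250 bases before the start, ATTTGCAT was found for 26 of the 62 members with a promoter entry, against 1.63% of all 35116 entries. They were 11 of 15 H2A, 14 of 18 H2B and 1 of 11 H3 genes, and none of the 6 H1 and 12 H4 genes. HIST1H2BD, HIST1H2BK, HIST1H3D and HIST1H3E had more than 1 window, and only the one listed first was searched. The H3 gene with the motif was HIST1H3D, in its window at chr6:26199244-26199543. Its other window, at chr6:26197237-26197536, was not searched. TATAAA was found for 41 of 62, against 3763 of all 35116 entries, and CCAAT for 53 of 62, against 32%, including every H1, H2A, H2B and H3 window and 3 of 12 H4 windows. The 25 measured members with ATTTGCAT had median log2 ratios of -0.30 in OR1 and -0.57 in OR2, and the 33 without it -0.12 and -0.74. The motif lay almost wholly in H2A and H2B windows. Within H2A, the 11 measured members with it had medians of -0.12 and -0.57, and the 3 without it -0.14 and -0.55. Within H2B, the 13 with it had -0.34 and -0.54, and the 4 without it -0.32 and -0.42.

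OR2 was lower than OR1 for 61 of the 63 members. The median log2 ratio of OR2 to OR1 was -0.59, against -0.07 over all genes. OR2 was lower by more than 2 technical SDs for 39 members, against 2947 of 18591 genes. HIST4H4 and HIST1H3B passed 0.5, 2 members against 2.76% of all genes, and no member passed 2, against 2.37%. Neither passed 0.5 with median scaling, no scaling, spike-in scaling or normexp, and the median was 0.080 with spike-in scaling. HIST4H4, the single gene of its cluster, had levels of -1.27 in H1975, -1.18 for OR1 and -2.23 for OR2. HIST1H3B had levels of 5.42 in H1975, 5.62 for OR1 and 4.60 for OR2, and HIST1H3D 5.85, 5.87 and 4.88. For these 3 genes, under the percentile scaling, OR1 stood at or slightly above H1975 and OR2 alone was low.

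The types differed in how evenly OR2 fell below OR1. All 13 H4 genes lay between -1.06 and -0.60 on the log2 scale. H2B genes spread from -0.80 to 0.06, and 5 of 17 were more than 2 technical SDs lower, against 13 of 13 for H4. These counts hold for the percentile scaling, since spike-in scaling put the H4 median at -0.04 and the H2B median at 0.44. H3 genes spread from -1.02 to 0.00. HIST1H3A, at levels of 5.30 in H1975 and 4.84 in both OR1 and OR2, and HIST1H2BK, at 5.27, 4.93 and 4.99, showed nearly the same signal in both resistant lines. HIST2H2AA4 had the largest ratio of OR2 to OR1, 1.18, with levels of 2.50 in H1975, 1.86 for OR1 and 2.10 for OR2.

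Probes far apart in 1 gene gave another picture of the difference between the lines. A pair of probes over 1 kb apart existed for 6 members, with hg19 positions from the files, and this comparison was chosen after the values were seen. Under the percentile scaling, the probe nearer the gene's start was lower in OR2 than in OR1 for all 6. In HIST1H2BK and HIST2H2BF it was lower by less than the technical SD. The downstream probe was higher in OR2 than in OR1 for all but HIST2H2BF, but only in HIST1H2AC and HIST1H2AG, of the 6, by more than the technical SD. These directions depend on the scaling. Spike-in scaling raised the log2 ratio of OR2 to OR1 by 0.67. That is more than the upstream decrease in HIST1H2AC, HIST1H2BK, HIST2H2BE and HIST2H2BF. A constant scaling leaves the difference between the probes of a gene unchanged.

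For HIST1H2AC, the upstream probe had unscaled intensities of 980 (H1975), 837 (OR1) and 671 (OR2), and the probe 14361 bases downstream had 982, 546 and 1014. The ratios of OR2 to OR1 were 0.684 upstream and 1.58 downstream. For HIST1H2AG, the probe 1043 bases downstream had unscaled intensities of 41.6 (H1975), 15.7 (OR1) and 76.2 (OR2), and its ratio of OR2 to OR1 was 4.13 against 0.59 upstream. On the scaled log2 ratios to H1975, the HIST1H2AG probes lay on opposite sides of H1975 in each line. In OR1 the upstream value of 0.13 was within its technical SD of 0.20. The downstream intensity in OR1 was near the lowest above background on that array, 11.4.

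HIST1H4H showed a ratio of 0.608 upstream and 1.12 at the probe 4211 bases downstream. For HIST1H2BK, whose chosen probe lies 8246 bases downstream of the other, the values were 0.919 upstream and 1.05 downstream. The upstream HIST1H2BK probe is also annotated to HIST1H2BL, HIST1H2BN and HIST2H2BF. The downstream probe of HIST2H2BE was not well above background in OR1, and its ratio of OR2 to OR1 was at least 1.68 against 0.664 upstream. In HIST2H2BF both probes were lower in both lines, with log2 ratios to H1975 of -0.95 and -1.30 in OR1 and -1.15 and -1.45 in OR2. The files place both away from the other HIST2 probes, and whether this placement is right was not checked against a genome. The 9 pairs under 1 kb apart that had a ratio had a median difference of 0.17 (OR1) and 0.26 (OR2) on the log2 scale, and the 6 far pairs one of 0.44 and 0.60.

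Signals for polyadenylation were searched in the probes, since transcripts past the stem-loop end at such a signal. AATAAA was present in 6 of the 85 member probes, on the probe's strand, against 7.85% of all probes on the array. It lay in the chosen probes of HIST1H2AB, HIST1H2BH, HIST1H4J and HIST2H2AC, and in the downstream probes of HIST1H4H and HIST2H2BF. The 5 chosen probes with AATAAA had median log2 ratios of -0.30 in OR1 and -0.57 in OR2, against -0.14 and -0.67 for the other 58 measured members. Of the downstream probes of HIST1H4H and HIST2H2BF, 30 bases each are shown with the motif in capitals.
HIST1H4H (probe at hg19, chr6:26281286-26281345, - strand): ccacagatttccAATAAAaggtgAATAAAa
HIST2H2BF (probe at hg19, chr1:149397120-149397179, - strand): tttcttttgccaAATAAAatatacccttgg
The histone stem-loop consensus was matched by 6 member probes and by 8 probes on the whole array. Of the chosen probes, 4 held the stem-loop, all well above background, and their median log2 ratio was -0.16 for OR1 and -0.93 for OR2, against -0.14 and -0.64 for the other 59. The part of each transcript form in the signal was not tested.

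**Figure D4:**
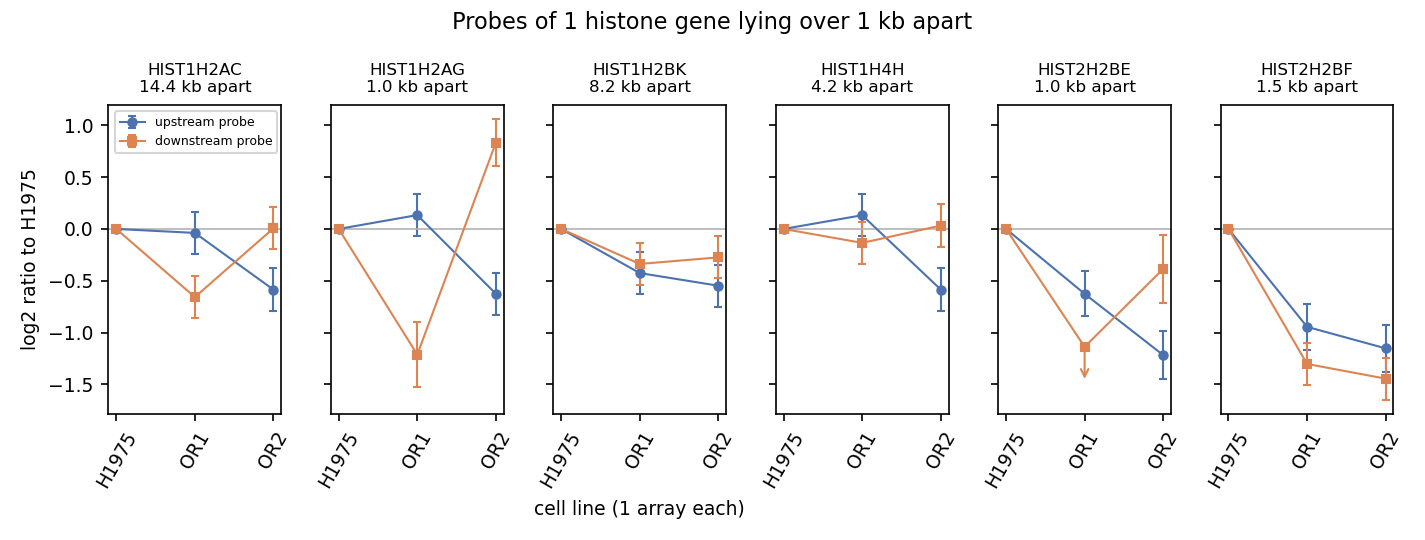
Log2 ratio to H1975 in OR1 and OR2 of the upstream and the downstream probe of the 6 members with probes over 1 kb apart. Error bars are the technical SD of 1 array against 1 array, and the arrow in HIST2H2BE marks an upper bound in OR1. Under the percentile scaling, upstream probes go down from OR1 to OR2 in all panels, and downstream probes go up in 5 of them.

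Genes that act with the histone clusters were described by lists chosen by function. Of 18 genes for histone mRNA expression and processing, 16 had signal on all 3 arrays, with median log2 ratios of 0.12 in OR1 and -0.08 in OR2. No gene of this list passed 0.5. ZNF473, a zinc finger protein of the U7 snRNP complex that cuts histone pre-mRNA, was the only one past 2 in both lines. Past 2 in both were 5.09% of all genes. The levels of ZNF473 were -3.31 in H1975, -1.42 for OR1 and -1.63 for OR2. Its H1975 intensity of 15.9 was near the lowest above background on that array, 12.6, so its ratios rest on a dim signal. SLBP, which binds the stem-loop, had log2 ratios of -0.36 in OR1 and -0.08 in OR2, and NPAT, which activates histone transcription in S phase, had 0.85 and 0.86.

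Of 16 measured genes for histone variants made outside S phase, 11 had signal on all arrays, with medians of -0.54 in OR1 and -0.70 in OR2. H1F0, the linker histone of resting cells, fell past 0.5 in both lines, from a level of 3.95 in H1975 down to 2.34 for OR1 and 2.86 for OR2. H3F3C, a retrocopy of H3F3B whose probe may share its signal with that gene, fell from 7.71 to 6.54 and 6.64. CENPA, the centromeric H3, passed 0.5 in OR1 with a log2 ratio of -1.02 and did not in OR2, where it had -0.81. Histone chaperones carry histones to DNA. Of 18 such genes, none passed either ratio in OR1, against 8.95% of all genes for 2 and 9.34% for 0.5. ASF1A alone passed 2 in OR2, against 7.47%, and the list medians were 0.07 and -0.20.

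Of 29 S-phase and DNA replication genes, none passed 2, 4 fell past 0.5 in OR1, against 9.34% of all genes, and 8 did in OR2, against 8.41%. The list medians were -0.35 and -0.56. CDT1, MCM7, CDC6 and PRIM1 fell in both lines. CDT1, which loads the replicative helicase, had levels of 4.73 in H1975, 3.08 for OR1 and 2.50 for OR2. MCM7, a subunit of that helicase, had 8.36, 7.11 and 7.25, and CDC6, another loading factor, had -1.20, -2.37 and -2.63. The 12 genes of G2 and mitosis had medians of -0.46 and -0.63, with TOP2A past 0.5 in OR1 (-1.23, against -0.41 in OR2) and AURKB in OR2 (-1.01, against -0.77 in OR1). Of 10 genes of cell cycle exit, 2 rose past 2 in OR1, against 8.95% of all genes, and 4 in OR2, against 7.47%. Past 0.5 fell 2 in OR1, against 9.34%, and 1 in OR2, against 8.41%. CDKN1C and CDKN2C rose past 2 in both lines and CDKN1A fell past 0.5 in both, and the list had medians of 0.12 and 0.49. Of the replication genes 21 were below H1975 in OR1 and 27 in OR2, and their part in the histone values was not tested.

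Markers of other cell types were near background for the most part. Of 8 fibroblast genes 1 had signal on all 3 arrays, of 7 leukocyte genes 4 and of 5 endothelial genes 3. Their summed normalized intensity, in multiples of the array's 75th percentile, ranged from 0.68 to 5.00 for fibroblast, from 3.95 to 13.6 for leukocyte and from 0.60 to 0.75 for endothelial genes over the 3 lines. Within these lists CD14 passed 2 in both lines, at levels of 0.75 in H1975, 2.83 for OR1 and 3.46 for OR2, and PECAM1 and, as a bound, LUM did so in OR1. COL1A2 passed 0.5 in both lines, in OR2 as a bound, and COL1A1 in OR2. The 10 epithelial genes summed to 2486 in H1975 and 1073 in both OR1 and OR2, with EPCAM, CDH1, KRT7 and KRT19 past 0.5 in both lines and KRT8 and KRT18 in neither. In the same list SFTPC passed 2 in both lines, with ratios of 3.78 and 4.87, and NKX2-1 passed 0.5 in OR1 at a ratio of 0.252, against 1.36 in OR2. Their part in the histone values was not tested.

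The direction of the histone values in OR2 held under each scaling tried, whereas the OR1 values moved with the scaling. The median of the members minus that of all genes lay between -0.63 and -0.55 in OR2 and between -0.25 and -0.12 in OR1 over all settings. Scaling on 7 spike-in probes lowered all genes in OR1 by 0.60, brought the members' median in OR1 to -0.74 and put the median of OR2 to OR1 at 0.080, while that of all genes was 0.61. The H4 median in OR1 lay between -0.56 and 0.08 over the settings and had no settled sign.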

How the data were processed

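The authors hybridized total RNA of each of the 3 lines to 1 single-colour Agilent array, and the arrays shared a slide. The authors deposited the intensity of each spot, with background and spatial trend removed and without scaling across arrays. Normalized intensities per probe were deposited as well. Agilent Feature Extraction is given as version 9.5.1.1 in the submitters' processing notes and as 10.7.1.1 in the file headers.

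Control spots and spots marked as outliers were left out, which removed no member probe, and no spot was saturated. Intensities of repeated spots were averaged as log2 values, and each array's 75th percentile of all probes other than controls was subtracted. The probe with the highest mean stood for a gene. A side not well above background was set to the lowest intensity above background on that array, or to its own value if higher, which makes the ratio a bound. Each ratio compares 1 array with 1 array, at the thresholds of 2 and 0.5.

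Named members are those past a ratio in both lines, those opposed between lines, for each type the brightest and the most increased and most decreased in the less changed line, and the 3 highest and 3 lowest ratios of OR2 to OR1. Other genes named were chosen after their values were seen. The members and lists were chosen with earlier results of these data known. RefSeq tables (GRCh38.p14) gave current names and promoters only, and positions of probes are those of the files (hg19). No genome sequence was used here.

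The ratios were recomputed without scaling, after scaling on the median or on spike-in probes, after quantile normalization, with a percentile over probes well above background, normexp with an offset of 50, the authors' normalized intensities, other filters, ratios of 4 or 1.5, and limma. The counting was tested on simulated data. Work was done with limma 3.58.1 in R 4.3.3, and with pandas 2.3.3, numpy 2.4.6, scipy 1.17.1 and matplotlib 3.10.9 in Python 3.11.15.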

Additional observations from a re-analysis of the deposited data

Results flagged for a closer look

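Values of 4 probes lay on opposite sides of H1975 in OR1 and OR2, each by more than its technical SD. These differences were not tested. The HIST1H2AA probe had log2 ratios of 0.288 in OR1 and -0.438 in OR2, and the HIST1H2AL probe 0.464 and -0.363. The less bright probe of HIST1H4A had 0.456 in OR1 and -0.284 in OR2. The downstream probe of HIST1H2AG had -1.21 in OR1 and 0.833 in OR2, the only one of the 4 with OR1 on the lower side.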

How the results depend on the processing

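No paired analysis was possible because each line has 1 array. No alternative turned a called value to the other side of H1975. Among the values of named members under the alternatives, 528 moved by less than the technical SD and 66 by more, 36 of them with spike-in scaling. The counts that follow are of members only, and the share of all genes called under each alternative is not given beside them. They show how calls move with the processing and are no result about the members. Spike-in scaling, for one, lowered all genes in OR1 by 0.60. The number of members down in OR1, 1 in the report, was 2 with median scaling, 5 without scaling, 12 with spike-in scaling, 2 without a background filter, 0 at a ratio of 0.25 and 9 at the inverse of 1.5. The number down in OR2, 8 in the report, was 5 with normexp, 0 at 0.25 and 38 at the inverse of 1.5. The number down in both was 2 with median scaling, 4 without scaling, 5 with spike-in scaling, 2 without a background filter, 0 at 0.25 and 8 at the inverse of 1.5. A limma fit took OR1 and OR2 as 2 samples of 1 condition against the single H1975 array. Since the lines are not replicates of each other, no count of members is taken from that fit. Members up, none in the report, were 3 in OR1, 1 in OR2 and 1 in both without a background filter, and 1 in OR1 at a ratio of 1.5. Members lower in OR2 than in OR1, 2 in the report, were 1 with quantile normalization, 1 with the percentile over probes above background, 1 with the authors' intensities, 0 with median scaling, no scaling, spike-in scaling or normexp, and 5 without a background filter. Without scaling, the members' median log2 ratio of OR2 to OR1 came to -0.36, and it was 0.080 after spike-in scaling. With spike-in scaling the OR1 medians were -0.74 for all members, -0.77 for H1, -0.72 for H2A, -0.93 for H2B, -0.72 for H3, -0.56 for H4, -0.72 for HIST1 and -1.35 for HIST2. A constant scaling moves members and all genes alike, which is why the members' distance from all genes did not change with it. The ratio of a dim probe is limited by its signal over background. This holds for HIST1H2AA, HIST2H2BE, HIST3H2BB, HIST4H4 and the downstream probe of HIST1H2AG. It also holds for genes of the other lists, ZNF473, NPAT, ASF1A and CDC6 among them.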
